A study of Mus musculus with 6 samples.

Results

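Lox, fibronectin (Fn1), the matrix metalloproteinase genes Mmp2, Mmp8, Mmp9, Mmp12, Mmp13, Mmp14 and Mmp19, and the inhibitor gene Timp2 were read across 3 populations of cultured mouse myeloid cells. These 10 genes were picked by name from the 19938 genes on the array that a probe set of a single gene represents. Where a gene has several such probe sets, the one with the highest mean over the 6 arrays stands for it, but each of the 10 genes has only 1, so that step chose nothing. The names themselves were picked with earlier results of these data known, among them the differences of Lox, Mmp2 and Mmp9 between the GM-CSF populations, so the number of genes that differ is a description and supports nothing about the group. GM-BMDC are dendritic cells by their label, sorted as MHCIIhighF4/80low from marrow grown with 25 ng/ml of GM-CSF. GM-BMM are macrophages sorted as MHCIIlowF4/80high from marrow grown with the same factor at the same dose. M-BMM are macrophages sorted as CD11b+F4/80+ from marrow grown in 20% L cell conditioned medium, which supplies M-CSF. All 3 came from C57BL/6J mice labelled male and 6 to 10 weeks old, were cultured for 7 days and gave 2 arrays each. GM-CSF populations and M-BMM therefore differ in growth factor, medium supplement and gate together, and these cannot be told apart.

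Matrix metalloproteinases are zinc-dependent enzymes that are made as inactive precursors and cut proteins of the extracellular matrix once their propeptide is removed. Gelatinases (Mmp2, Mmp9) degrade denatured collagen and basement membrane collagen, collagenases (Mmp8, Mmp13) cut fibrillar collagen, and macrophage elastase (Mmp12) cuts elastin. Mmp14 encodes a membrane-bound enzyme that activates the MMP2 precursor together with the inhibitor TIMP2, while lysyl oxidase cross-links collagen and elastin and fibronectin is a matrix glycoprotein bound by integrins. Macrophages are a known source of several of these enzymes in inflamed tissue and in bone.

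Each value is an RMA signal on the log2 scale, so a difference of 1 is a factor of 2, and levels are compared only within a gene. A value below 5.04, the 25th percentile of all values in the table, is called low, and a gene is low in a population when both of its arrays are. None of the 10 genes was low on any array. The labels call the arrays of a population biological replicates without saying which animals or cultures they came from. The p-values therefore measure the spread between arrays, which in M-BMM may be technical. In each GM-CSF population the arrays differ in sex-linked RNA, as given below, so their spread is not technical alone. These are sorted bulk samples, and fewer cells of a type cannot be told apart from less RNA per cell. All 8 dendritic cell markers, among them Ccr7, Dpp4 and Flt3, were higher in GM-BMDC than in GM-BMM and than in M-BMM by limma. Of all genes, 10.4% and 16.7% were called in these comparisons. The list holds H2-Ab1 and H2-Aa, genes of the MHCII that the GM-CSF cultures were sorted on. Both are therefore no independent sign of cell type. In GM-BMM, 4 of the 8 were also higher than in M-BMM, where 6.19% of all genes were called. Of 7 macrophage markers measured, 5 were lower in GM-BMDC than in GM-BMM (71.4%) and 4 lower than in M-BMM (57.1%). None was low. Adgre1 and Itgam encode the sorted antigens F4/80 and CD11b, and Adgre1 read 9.39 and 10.91 in GM-BMDC. The male label was not borne out on 3 arrays. Both GM-BMDC arrays (11.66 and 10.68) and the first GM-BMM array (11.58) carried Xist, an RNA of female cells, which was low on the second GM-BMM array (4.93) and in M-BMM (4.53 and 4.80). On the first array of each GM-CSF population Eif2s3y, a Y-linked gene, was low too (3.94 in GM-BMDC and 3.66 in GM-BMM). Results are therefore also given without both GM-CSF arrays numbered 1. This does not remove the difference in sex, because the second GM-BMDC array carries Y-linked RNA (8.80 for Eif2s3y) beside Xist, while M-BMM carries Y-linked RNA alone.

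Lox, Mmp2, Mmp9 and Mmp14 had less RNA in GM-BMDC than in either macrophage population, and Mmp12, Fn1, Mmp13, Mmp19 and Mmp8 had more RNA in GM-BMDC than in M-BMM, while Timp2 passed in no comparison. Between GM-BMDC and GM-BMM, 0 of 10 were higher and 5 lower in GM-BMDC by limma, where 10.4% of all genes were called in either direction, 4.69% higher and 5.74% lower. Of the 5 lower genes, 3 are Lox, Mmp2 and Mmp9, whose differences were known beforehand, so nothing is read from this count. At an unadjusted p under 0.05 the counts were also 0 and 5. In GM-BMM against M-BMM, 6 of 10 were higher and 0 lower, where 6.19% of all genes were called, 3.62% higher and 2.57% lower, and 8 and 0 had an unadjusted p under 0.05. Set against M-BMM, GM-BMDC had 5 of the 10 genes higher and 4 lower, where 16.7% of all genes were called, 7.76% higher and 8.9% lower. The median log2 difference of the 10 genes was -1.35, 1.72 and 0.25 in the 3 comparisons, beside 0.016, -0.020 and -0.0024 over all genes. Arrays of the compared populations did not overlap in 8, 9 and 9 of the 10 genes, which is weak evidence with 2 arrays a group, since the same held of 51.3%, 49.8% and 56.4% of all genes. The comparisons share arrays, so their values are given side by side and not as independent results. For Lox, Mmp2 and Mmp9, p-values against M-BMM are therefore not free of the choice made with GM-BMDC minus GM-BMM known. Between the macrophage populations the count of 6 became 4 without M-BMM replicate 1 and 3 without replicate 2, with no fewer than 5 under any other array left out. Wherever a fit leaves 1 array in a population, that array is assumed to vary like the other populations, and the p rests on their spread. Without limma's moderation of the variances 0 of the 10 genes passed in any comparison, and 4, 5 and 7 had an unadjusted p under 0.05.

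**Figure D1:**
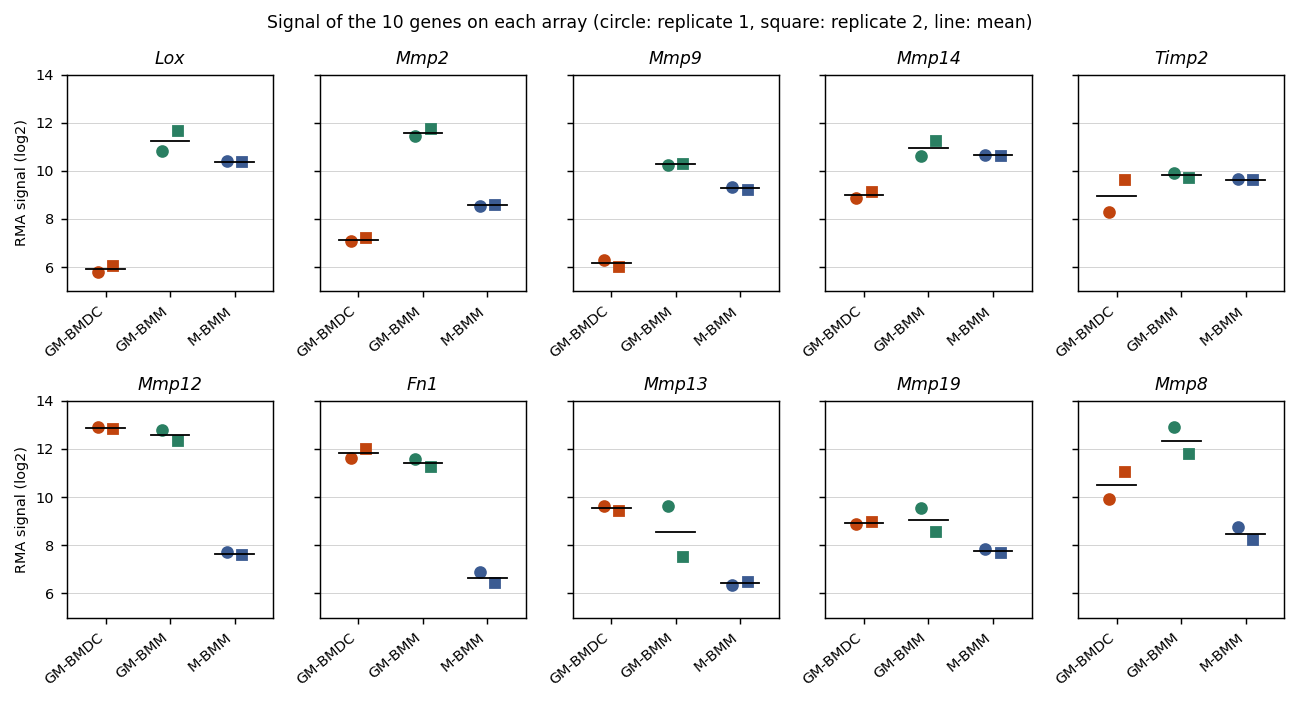
RMA signal (log2, vertical axis) of each of the 10 genes on each array, with GM-BMDC, GM-BMM and M-BMM from left to right, a circle for replicate 1, a square for replicate 2 and a line for the mean of 2 arrays. Lox, Mmp2, Mmp9 and Mmp14 are lowest in GM-BMDC, Mmp12 and Fn1 are lowest in M-BMM, and the GM-BMM arrays of Mmp13 lie far apart at 9.64 and 7.49.

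**Figure D2:**
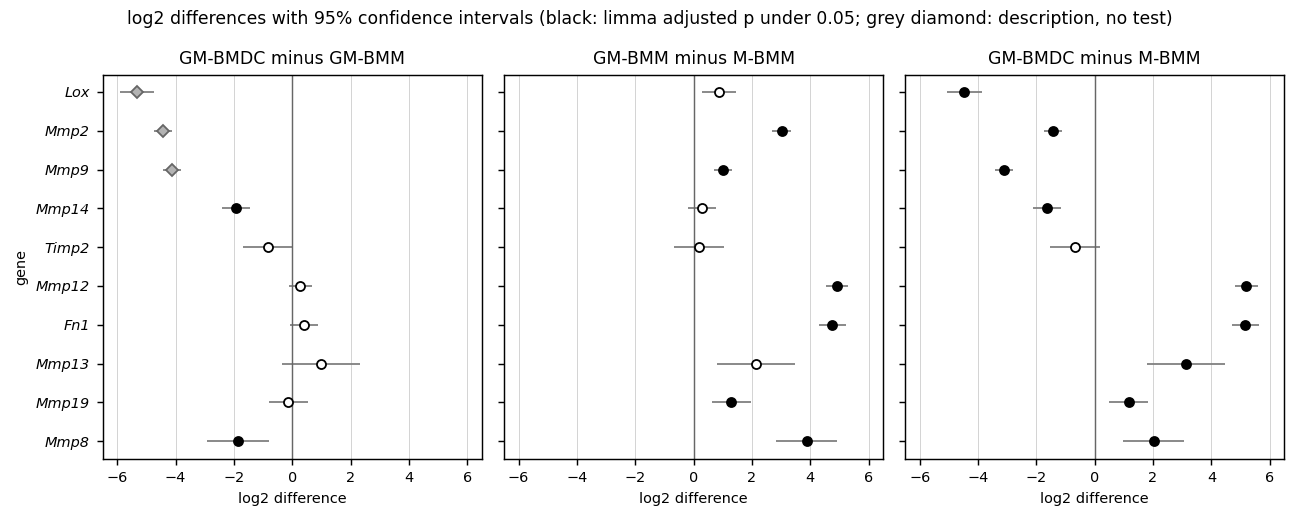
Differences of group means (log2, horizontal axis) of the 10 genes in the 3 comparisons, with 95% confidence intervals from limma (n = 2 arrays per population). Circles are black where the limma adjusted p is under 0.05 and white otherwise, and grey diamonds mark Lox, Mmp2 and Mmp9 in GM-BMDC minus GM-BMM, shown as a description without a test. The 6 black circles of GM-BMM minus M-BMM lie right of 0, and those of Mmp8 and Mmp14 in GM-BMDC minus GM-BMM lie left of it.

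Among the gelatinases, Mmp2 was highest in GM-BMM. Mmp2 read 7.07 and 7.20 in GM-BMDC, 11.44 and 11.72 in GM-BMM, and 8.55 and 8.58 in M-BMM. Its arrays fell into 3 separate levels with GM-BMM well above the others. The log2 difference was -4.44 ± 0.13 (SE, n = 2 arrays per population) in GM-BMDC minus GM-BMM, for which no p is given because this difference was among the results already known when the gene was picked. Mmp2 was 3.01 ± 0.13 higher in GM-BMM than in M-BMM (limma adjusted p = 4.38e-05), a factor of 8.08, and its difference was -1.43 ± 0.13 in GM-BMDC minus M-BMM (limma adjusted p = 0.000517).

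Mmp9, the other gelatinase gene, read 6.31 and 6.02 in GM-BMDC, 10.26 and 10.30 in GM-BMM, and 9.34 and 9.22 in M-BMM. It followed the order of Mmp2, but its 2 macrophage populations lay closer together. The log2 difference was -4.12 ± 0.13 in GM-BMDC minus GM-BMM, given as a description, and -3.12 ± 0.13 in GM-BMDC minus M-BMM (limma adjusted p = 2.14e-05). In GM-BMM it was 1.003 ± 0.13 higher than in M-BMM (limma adjusted p = 0.00526), and this call was lost without M-BMM replicate 1 (1.06, limma adjusted p = 0.0535) or replicate 2 (0.945, limma adjusted p = 0.0793). Of the 8 markers of osteoclasts, a cell type known for Mmp9, 2 were higher and 2 lower in GM-BMDC than in GM-BMM. Between the macrophage populations, 3 were higher and 0 lower in GM-BMM, where 4 and 0 had an unadjusted p under 0.05. Relative to M-BMM, the sorted dendritic cells had more RNA of 3 markers and less of 1 by limma, though less of Mmp9. The shares called, in this order, were 50%, 37.5% and 50% of the list, beside 10.4%, 6.19% and 16.7% of all genes. The mean level of these markers over the list ran from 8.01 to 8.13 on GM-BMDC arrays, 7.95 to 8.17 on GM-BMM arrays and 6.78 to 6.87 on M-BMM arrays, none was low in any population (Calcr was below the cut on 1 array each of GM-BMDC and M-BMM), and their part in the result was not tested.

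Mmp14, which encodes the membrane-bound activator of the MMP2 precursor, read 8.88 and 9.12 in GM-BMDC, 10.60 and 11.26 in GM-BMM, and 10.66 and 10.63 in M-BMM. GM-BMDC stood below both macrophage populations, whose arrays overlapped. It was lower in GM-BMDC by a log2 difference of -1.93 ± 0.21 against GM-BMM (limma adjusted p = 0.00172) and -1.64 ± 0.21 against M-BMM (limma adjusted p = 0.002). Between GM-BMM and M-BMM the difference was 0.29 ± 0.21 with a 95% interval of -0.20 to 0.78 (limma adjusted p = 0.549). It was -0.038 without GM-BMM replicate 2 and 0.62 without both GM-CSF arrays numbered 1.

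Timp2, the inhibitor that takes part in that activation, read 8.31 and 9.64 in GM-BMDC, 9.93 and 9.70 in GM-BMM, and 9.65 and 9.62 in M-BMM. Only GM-BMDC replicate 1 lay apart, and the second GM-BMDC array fell between those of M-BMM. No comparison passed: the log2 differences were -0.84 ± 0.37 in GM-BMDC minus GM-BMM (limma adjusted p = 0.226, 95% interval -1.70 to 0.02), 0.17 ± 0.37 in GM-BMM minus M-BMM (limma adjusted p = 0.875) and -0.66 ± 0.37 in GM-BMDC minus M-BMM (limma adjusted p = 0.303). With GM-BMDC replicate 2 left out, so that replicate 1 alone stands for GM-BMDC, the differences were -1.50 against GM-BMM (limma adjusted p = 0.00227) and -1.33 against M-BMM (limma adjusted p = 0.00263).

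Lox, whose enzyme cross-links collagen and elastin, read 5.79 and 6.05 in GM-BMDC, 10.84 and 11.67 in GM-BMM, and 10.39 and 10.38 in M-BMM. Both macrophage populations were several log2 units above GM-BMDC, and the GM-BMM arrays lay above those of M-BMM. The difference of -5.33 ± 0.25 in GM-BMDC minus GM-BMM, given as a description, was the 3rd largest in size of all 19938 genes. Lox was also lower in GM-BMDC than in M-BMM, by -4.47 ± 0.25 (limma adjusted p = 6.9e-05). GM-BMM and M-BMM differed by 0.87 ± 0.25 (limma adjusted p = 0.0998). This difference was 1.29 without GM-BMM replicate 1 and also without both GM-CSF arrays numbered 1. With Y-linked RNA as a covariate it was 1.21 and passed (limma adjusted p = 0.0111). Fibroblasts are a known source of Lox, Mmp2 and Fn1, so fibroblast markers were read beside these genes. Of 10 fibroblast markers, Dcn was lower in GM-BMDC than in GM-BMM and higher in GM-BMM than in M-BMM, and no other passed in any comparison. The shares called were 10% and 10% there, beside 10.4% and 6.19% of all genes. In GM-BMDC minus M-BMM the share was 0%, beside 16.7%. The mean level of the 10 markers was 5.65 to 5.74 on GM-BMDC arrays, 5.88 to 5.97 on GM-BMM arrays and 5.79 to 5.85 on M-BMM arrays. Lum was low in every population, and the part of these markers in the results was not tested.

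Fn1, which encodes fibronectin, read 11.63 and 12.01 in GM-BMDC, 11.58 and 11.26 in GM-BMM, and 6.87 and 6.44 in M-BMM. The split ran between the GM-CSF populations and M-BMM, with the arrays of the GM-CSF populations almost touching. Fn1 was 4.76 ± 0.20 higher in GM-BMM than in M-BMM (limma adjusted p = 4.14e-05), a factor of 27.1 and the 11th largest difference of all genes in that comparison. It was 5.16 ± 0.20 higher in GM-BMDC than in M-BMM (limma adjusted p = 1.56e-05). GM-BMDC and GM-BMM differed by 0.40 ± 0.20 with a 95% interval of -0.07 to 0.87 (limma adjusted p = 0.300).

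The macrophage elastase gene Mmp12 read 12.89 and 12.81 in GM-BMDC, 12.80 and 12.35 in GM-BMM, and 7.73 and 7.59 in M-BMM. Its arrays repeated the split seen in Fn1. Mmp12 was 4.92 ± 0.16 higher in GM-BMM than in M-BMM (limma adjusted p = 1.95e-05), the 9th largest difference of all genes, and 5.20 ± 0.16 higher in GM-BMDC than in M-BMM (limma adjusted p = 1.07e-05). GM-BMDC and GM-BMM differed by 0.28 ± 0.16 with a 95% interval of -0.11 to 0.66 (limma adjusted p = 0.390). The name of the enzyme comes from macrophages, yet its RNA in the sorted dendritic cells was not below that in GM-BMM on either array.

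The collagenase gene Mmp13 read 9.65 and 9.43 in GM-BMDC, 9.64 and 7.49 in GM-BMM, and 6.35 and 6.49 in M-BMM. GM-BMM replicate 1 lay among the GM-BMDC arrays and replicate 2 below them but above the M-BMM arrays. Mmp13 was 3.12 ± 0.57 higher in GM-BMDC than in M-BMM (limma adjusted p = 0.0098). Its differences of 0.98 ± 0.57 in GM-BMDC minus GM-BMM (limma adjusted p = 0.384) and 2.14 ± 0.57 in GM-BMM minus M-BMM (limma adjusted p = 0.0806) did not pass. Both turned on 1 array: without GM-BMM replicate 1 they were 2.05 (limma adjusted p = 0.000789) and 1.07 (limma adjusted p = 0.0152), and without GM-BMM replicate 2 they were -0.095 (limma adjusted p = 0.833) and 3.22 (limma adjusted p = 0.000123). Each of these fits has a single GM-BMM array. The call in GM-BMDC minus M-BMM was lost without GM-BMDC replicate 1 (3.01, limma adjusted p = 0.0571), M-BMM replicate 1 (3.05, limma adjusted p = 0.0948) or M-BMM replicate 2 (3.19, limma adjusted p = 0.0768), and the difference was 2.34 with Y-linked RNA as a covariate.

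Mmp8, which encodes the collagenase first known from neutrophils, read 9.93 and 11.04 in GM-BMDC, 12.91 and 11.78 in GM-BMM, and 8.75 and 8.20 in M-BMM. The populations did not overlap, but arrays of 1 population differed by up to more than 1 log2 unit. Mmp8 was lower in GM-BMDC than in GM-BMM, by -1.86 ± 0.45 (limma adjusted p = 0.0416). It was 3.87 ± 0.45 higher in GM-BMM than in M-BMM (limma adjusted p = 0.003) and 2.01 ± 0.45 higher in GM-BMDC than in M-BMM (limma adjusted p = 0.0218). The first call was lost without GM-BMDC replicate 1 (-1.30), GM-BMM replicate 1 (-1.29) or either M-BMM array. Without both GM-CSF arrays numbered 1 that difference was -0.74. The second was lost without M-BMM replicate 2 (3.60, limma adjusted p = 0.0599), and the third without GM-BMDC replicate 2 (1.46, limma adjusted p = 0.0879), M-BMM replicate 1 (2.29, limma adjusted p = 0.0939) or M-BMM replicate 2 (1.74, limma adjusted p = 0.154).

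Neutrophil granules are a known site of MMP8 and MMP9, so neutrophil markers were read beside both genes. Of 13 such markers, 1 passed in GM-BMDC minus GM-BMM and 1 in GM-BMDC minus M-BMM, in both cases Csf3r, which encodes the G-CSF receptor and was lower in GM-BMDC. In GM-BMM minus M-BMM only Mpo passed, and it was lower in GM-BMM. Each count is 7.69% of the list. Of all genes, 10.4% were called in GM-BMDC minus GM-BMM, 16.7% in GM-BMDC minus M-BMM and 6.19% in GM-BMM minus M-BMM. The shares are thus near or below those of all genes. At an unadjusted p under 0.05, 2 were higher and 5 lower in GM-BMDC minus GM-BMM. The list was highest on GM-BMM replicate 1, the array on which Mmp8 was highest too. S100a8 read 8.54 there and 7.04 on replicate 2, Ngp 9.02 and 7.02, Ltf 6.79 and 5.89, S100a9 6.93 and 6.06, and Ly6g 6.18 and 5.45. Prtn3 and Cxcr2 were also higher on replicate 1, though Cxcr2 was low on both arrays. Elane, Mpo, Ctsg, Camp, Csf3r and Retnlg went the other way, with Csf3r at 9.52 on replicate 1 and 9.86 on replicate 2. Mean levels over the list were 5.79 to 5.87 on GM-BMDC arrays, 6.04 to 6.47 on GM-BMM arrays and 6.18 to 6.20 on M-BMM arrays. Cxcr2 and Retnlg were low in every population, and the part of such cells in the levels of Mmp8 and Mmp9 was not tested.

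Mmp19, whose enzyme cuts basement membrane proteins, read 8.87 and 8.97 in GM-BMDC, 9.56 and 8.56 in GM-BMM, and 7.84 and 7.67 in M-BMM. All 4 GM-CSF arrays lay above M-BMM, and the GM-BMM arrays enclosed those of GM-BMDC. Mmp19 was 1.30 ± 0.29 higher in GM-BMM than in M-BMM (limma adjusted p = 0.0415) and 1.16 ± 0.29 higher in GM-BMDC than in M-BMM (limma adjusted p = 0.0316). GM-BMDC and GM-BMM differed by -0.14 ± 0.29 with a 95% interval of -0.81 to 0.53 (limma adjusted p = 0.850), which became 0.36 without GM-BMM replicate 1 and 0.41 without both GM-CSF arrays numbered 1. The call in GM-BMM minus M-BMM was lost without either GM-BMDC array (limma adjusted p = 0.0614), M-BMM replicate 1 (1.39, limma adjusted p = 0.205) or M-BMM replicate 2 (1.21, limma adjusted p = 0.263). That in GM-BMDC minus M-BMM was lost without GM-BMDC replicate 1 (1.21, limma adjusted p = 0.106) or replicate 2 (1.11, limma adjusted p = 0.111) and M-BMM replicate 1 (1.25, limma adjusted p = 0.145) or replicate 2 (1.07, limma adjusted p = 0.176).

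Mmp8, Mmp12 and Mmp13 lie in 1 run of 10 metalloproteinase genes on mouse chromosome 9, in the RefSeq order Mmp13, Mmp12, Mmp1b, Mmp3, Mmp1a, Mmp10, Mmp8, Mmp27, Mmp20 and Mmp7, with no other protein-coding gene between them in that annotation. All 10 were measured. Mmp1b, Mmp3 and Mmp1a, which stand between Mmp12 and Mmp8, were low on every array. Mmp10, Mmp20 and Mmp7 stayed between 4.90 and 5.49. Mmp27, the neighbour of Mmp8, ran the other way from Mmp12 and Mmp13: it read 4.91 and 5.38 in GM-BMDC, 8.37 and 7.25 in GM-BMM, and 8.93 and 8.46 in M-BMM. Mmp27 was thus lower in GM-BMDC by -2.67 ± 0.35 against GM-BMM (limma adjusted p = 0.00406; -1.87 without both GM-CSF arrays numbered 1) and -3.55 ± 0.35 against M-BMM (limma adjusted p = 0.000689). Between GM-BMM and M-BMM it differed by -0.89 ± 0.35 (limma adjusted p = 0.229).

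**Figure D3:**
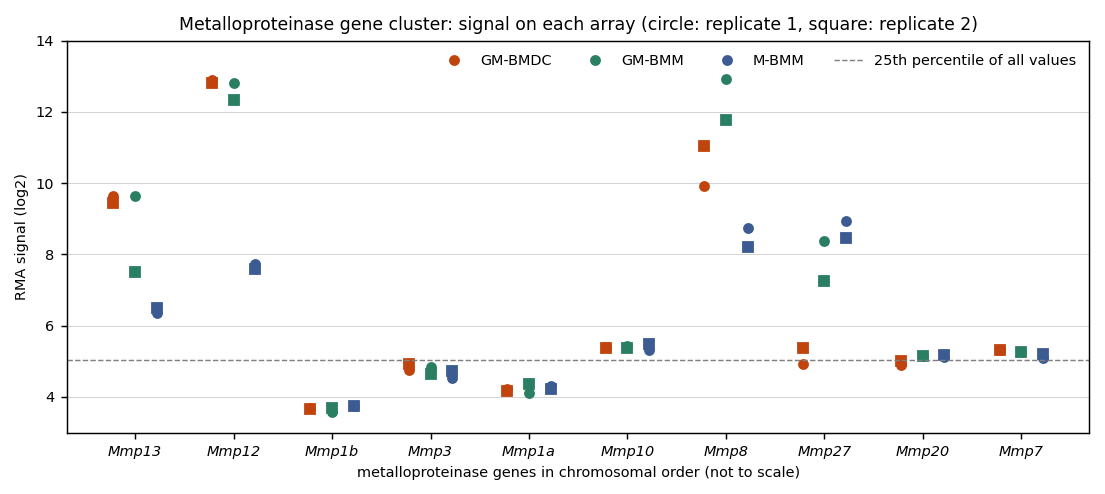
RMA signal (log2, vertical axis) of the 10 metalloproteinase genes of the chromosome 9 run in their chromosomal order (horizontal axis, not to scale), with GM-BMDC, GM-BMM and M-BMM from left to right for each gene, a circle for replicate 1 and a square for replicate 2. Mmp13, Mmp12, Mmp8 and Mmp27 vary between populations, and the other 6 genes lie near or under the dashed 25th percentile of all values.

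The stretches just upstream of 4 of the metalloproteinase genes are shown because Mmp12 and Mmp13 were both higher in GM-BMDC than in M-BMM, Mmp8 was too, and Mmp14 was lower. They are the 250 bases before a RefSeq start on GRCm38.p6, 5′ to 3′ on the gene's strand, from a promoter table that held windows for 5 of the 10 genes (Mmp8, Mmp12, Mmp13, Mmp14 and Timp2, 6 windows in all). Capitals mark TGANTCA, the letters bound by AP-1 proteins. The Mmp12 window is that of the second of its 2 listed starts, and the window of the first, which holds no TGANTCA, is not printed.
Mmp13, chr9:7272264-7272513, plus strand: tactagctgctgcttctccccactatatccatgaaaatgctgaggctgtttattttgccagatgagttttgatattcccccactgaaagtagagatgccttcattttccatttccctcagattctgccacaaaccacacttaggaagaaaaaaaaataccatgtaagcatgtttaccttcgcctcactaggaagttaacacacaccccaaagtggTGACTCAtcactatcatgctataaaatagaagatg
Mmp12, chr9:7347124-7347373, plus strand: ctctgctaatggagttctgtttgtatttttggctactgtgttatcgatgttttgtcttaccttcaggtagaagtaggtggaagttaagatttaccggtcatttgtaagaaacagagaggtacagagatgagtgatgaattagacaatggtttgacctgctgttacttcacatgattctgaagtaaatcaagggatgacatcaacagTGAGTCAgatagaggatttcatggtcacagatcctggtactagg
Mmp8, chr9:7558179-7558428, plus strand: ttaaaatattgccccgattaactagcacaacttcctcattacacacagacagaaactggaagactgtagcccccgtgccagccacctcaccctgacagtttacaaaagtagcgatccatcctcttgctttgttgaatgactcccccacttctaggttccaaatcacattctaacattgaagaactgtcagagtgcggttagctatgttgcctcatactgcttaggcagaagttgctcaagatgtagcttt
Mmp14, chr14:54431348-54431597, plus strand: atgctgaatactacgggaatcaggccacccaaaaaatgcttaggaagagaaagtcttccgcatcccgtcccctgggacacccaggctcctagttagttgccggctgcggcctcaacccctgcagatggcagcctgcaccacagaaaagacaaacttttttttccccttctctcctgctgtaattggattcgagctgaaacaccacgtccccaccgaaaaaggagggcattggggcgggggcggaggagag
TGANTCA, which reads alike on both strands, stands at -35 to -29 before the Mmp13 start and at -44 to -38 before the second Mmp12 start, and in none of the other 4 windows. It occurs in 6.75% of the 32851 mouse windows of this length. AACCACA, the letters bound by Runx proteins, was searched on both strands and stands at -119 to -113 in Mmp13 alone, and occurs in 4.40% of all windows. TTCNNNGAA, the letters bound by STAT proteins, was found in none of the 6 windows and occurs in 7.02% of all windows. None of these motif matches overlaps another. A match in these letters is a description and not a site shown to be bound.

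The rest of the matrix remodelling pathway was read from 7 lists of 153 genes, of which 147 were measured outside the 10 genes. In GM-BMDC against GM-BMM, 9 were higher and 15 lower by limma, 16.3% of those measured against 10.4% of all genes. In GM-BMM against M-BMM, 14 were higher and 0 lower (9.52% against 6.19% of all genes), with 20 and 10 at an unadjusted p under 0.05. For GM-BMDC and M-BMM the counts were 19 higher and 15 lower (23.1% against 16.7% of all genes). All 3 median differences of the lists together lay between -0.016 and 0.022, close to those of all genes. The count of 14 fell to 3 without either M-BMM array, and the count of 34 to 15 without M-BMM replicate 1 and 16 without replicate 2.

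Other metalloproteinases had 15 measured members, of which 2 were higher and 1 lower in GM-BMDC against each macrophage population (20.0% of the list, beside 10.4% and 16.7% of all genes). Mmp25, a membrane-anchored enzyme of leukocytes, read 11.22 and 10.38 in GM-BMDC, 5.98 and 6.04 in GM-BMM, and 5.71 and 5.96 in M-BMM. Its direction was opposite to that of Lox and Mmp9, with a difference of 4.79 ± 0.25 in GM-BMDC minus GM-BMM (limma adjusted p = 9.54e-05) and 4.96 ± 0.25 in GM-BMDC minus M-BMM (limma adjusted p = 3.99e-05). Mmp23 was 1.69 ± 0.23 and 1.70 ± 0.23 higher in GM-BMDC than in GM-BMM and M-BMM (limma adjusted p = 0.00437 and 0.00252), and Mmp27 was the lower one. No member passed by limma in GM-BMM against M-BMM, where 1 had an unadjusted p under 0.05. Of 30 ADAM and ADAMTS genes, 3 were higher and 2 lower in GM-BMDC than in GM-BMM, 2 were higher and 0 lower in GM-BMM than in M-BMM, and 5 were higher and 3 lower in GM-BMDC than in M-BMM. These are 16.7%, 6.67% and 26.7% of the list, against 10.4%, 6.19% and 16.7% of all genes, so the share between the macrophage populations is near that of all genes. Adam23, a family member without the catalytic zinc motif, was 3.86 ± 0.35 higher in GM-BMDC than in GM-BMM (limma adjusted p = 0.000742; 3.25 without GM-BMM replicate 1, 4.47 without replicate 2 and 3.12 without both GM-CSF arrays numbered 1) and 4.03 ± 0.35 higher than in M-BMM (limma adjusted p = 0.000383). Among 6 inhibitor genes other than Timp2, Timp1 alone passed, 1.36 ± 0.18 higher in GM-BMDC than in GM-BMM and 1.60 ± 0.18 higher than in M-BMM (limma adjusted p = 0.00433 and 0.00131). This is 16.7% of the list in each case, beside 10.4% and 16.7% of all genes, so the share against M-BMM is that of all genes.

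Of 14 activators and surface partners, 0 were higher and 2 lower in GM-BMDC than in GM-BMM, 5 were higher and 0 lower in GM-BMM than in M-BMM, and 6 were higher and 2 lower in GM-BMDC than in M-BMM. These are 14.3%, 35.7% and 57.1% of the list, beside 10.4%, 6.19% and 16.7% of all genes. Lcn2, whose human protein binds MMP9, was lower in GM-BMDC by -2.43 ± 0.20 against GM-BMM (limma adjusted p = 0.000555). Plaur, the receptor of the plasminogen activator urokinase, read 10.27 and 10.40 in GM-BMDC, 10.88 and 9.26 in GM-BMM, and 7.70 and 7.53 in M-BMM. Like Fn1, it was higher in GM-BMDC than in M-BMM (2.72 ± 0.44, limma adjusted p = 0.00565), a call lost without M-BMM replicate 1 (2.80, limma adjusted p = 0.0581) or replicate 2 (2.64, limma adjusted p = 0.0634). Of 19 cross-linking and collagen maturation genes, 4 were lower in GM-BMDC than in GM-BMM and 4 lower than in M-BMM, with none higher, while 1 and 0 were higher at an unadjusted p under 0.05. In GM-BMM against M-BMM, 1 was higher and 0 lower. The shares were 21.1% in both comparisons of GM-BMDC, beside 10.4% (against GM-BMM) and 16.7% (against M-BMM) of all genes. Between the macrophage populations the share was 5.26%, near the 6.19% of all genes. Tgm2, a transglutaminase that cross-links matrix proteins, was lower in GM-BMDC than in GM-BMM by -1.88 ± 0.13 (limma adjusted p = 0.000359) and 1.26 ± 0.13 higher in GM-BMM than in M-BMM (limma adjusted p = 0.00199), the order seen in Mmp2. Plod1, a collagen lysyl hydroxylase, was lower in GM-BMDC by -1.33 ± 0.21 and -1.58 ± 0.21 against GM-BMM and M-BMM (limma adjusted p = 0.00868 and 0.00258).

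Most genes of matrix proteins did not pass: of 44, 0 were higher and 5 lower in GM-BMDC than in GM-BMM, 4 were higher and 0 lower in GM-BMM than in M-BMM, and 1 was higher and 4 lower in GM-BMDC than in M-BMM. The shares called were 11.4%, 9.09% and 11.4%, near or below the 10.4%, 6.19% and 16.7% of all genes except between the macrophage populations. Ecm1 was lower in GM-BMDC than in GM-BMM by -2.19 ± 0.31 (limma adjusted p = 0.00493; -1.47 without both GM-CSF arrays numbered 1), and Dcn, the collagen-binding proteoglycan decorin, by -1.67 ± 0.23 (limma adjusted p = 0.00499). Vcan, the proteoglycan versican, was 3.14 ± 0.43 higher in GM-BMDC than in M-BMM (limma adjusted p = 0.00285), and 2.50 with Y-linked RNA as a covariate. Thbs1, a matricellular protein that modulates proteases, was 1.19 ± 0.13 higher in GM-BMM than in M-BMM (limma adjusted p = 0.00203). Of 19 receptors for fibronectin and collagen, 3 were higher and 1 lower in GM-BMDC than in GM-BMM, 2 were higher and 0 lower in GM-BMM than in M-BMM, and 4 were higher and 1 lower in GM-BMDC than in M-BMM (21.1%, 10.5% and 26.3% of the list). Itga1, the collagen-binding integrin subunit, was 3.84 ± 0.43 higher in GM-BMDC than in M-BMM (limma adjusted p = 0.00112), where it was low on both arrays (4.85 and 4.98), so the size of the difference is uncertain. Lair1, an inhibitory collagen receptor, was lower in GM-BMDC by -2.22 ± 0.28 against GM-BMM and -2.72 ± 0.28 against M-BMM (limma adjusted p = 0.00295 and 0.000731).

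**Figure D4:**
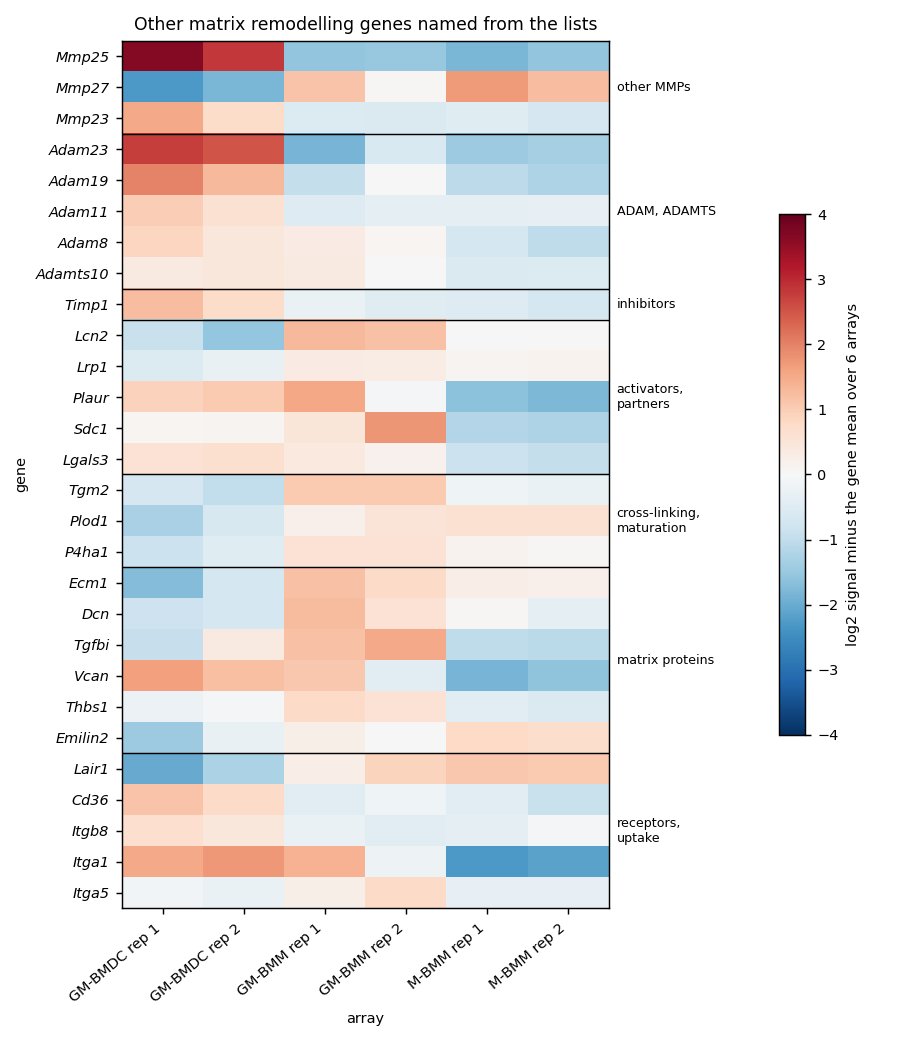
Signal of each named gene of the 7 lists (rows, grouped by list) on each array (columns, GM-BMDC, GM-BMM and M-BMM from left to right), as the log2 signal minus the gene's mean over 6 arrays, red above and blue below that mean. Mmp25, Adam23 and Timp1 are red in GM-BMDC alone, Lcn2 and Tgm2 are deepest red in GM-BMM, and Plaur, Vcan and Itga1 are blue in M-BMM.

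For the 9 genes whose group means spanned over 1 log2 unit, the nearest other profiles were found by the root mean square difference over the 6 arrays, after each gene was centred on its own mean. The androglobin gene Adgb lay nearest to Mmp9 (0.21) and to Lox (0.52), so 1 gene is the nearest to both. Plxdc2 lay nearest to Mmp12 (0.42) and to Fn1 (0.47), and Vcan lay nearest to Mmp13 (0.20). For Mmp14 the nearest were Slfn8 (0.089) and Abcc3 (0.096), and for Mmp2 they were Slfn4 (0.29) and Ptges (0.34). Mmp8 had Ppbp (0.27) and Pdpn (0.44), and Mmp19 had S100a1 and Mgat4a (both 0.10). The second nearest were Siglece (0.57) for Lox, Ifi208 (0.29) for Mmp9, Olr1 (0.46) for Mmp12, Cish (0.29) for Mmp13 and Itgax (0.48) for Fn1. The GM-BMDC means of Adgb (4.95) and Ifi208 (4.73) lay below the low cut of 5.04, so the size of their differences is uncertain. All of these distances describe 6 arrays of 3 populations and carry no test.

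The fit without both GM-CSF arrays numbered 1 has 1 array in each GM-CSF population, and its spread rests on the M-BMM arrays. Genes called are therefore not counted for it. Its GM-BMDC minus GM-BMM difference was -0.74 for Mmp8 and 1.94 for Mmp13, beside -1.86 and 0.98 with all arrays. In GM-BMM minus M-BMM it was 1.29 for Lox, 1.07 for Mmp13 and 0.62 for Mmp14, beside 0.87, 2.14 and 0.29. Y-linked RNA varied little within M-BMM (9.32 and 9.17 for Eif2s3y). As a covariate it therefore follows, within populations, the replicate number of the GM-CSF arrays. It also leaves out Xist, so it does not remove the difference in sex. With Y-linked RNA as a covariate, 4, 6 and 7 of the 10 genes were called, beside 5, 6 and 9 without it. The comparisons are GM-BMDC against GM-BMM, GM-BMM against M-BMM and GM-BMDC against M-BMM. Over all genes the covariate gave 2233, 899 and 2114 calls, beside 2079, 1235 and 3323 without it. Mmp8 was then lost in GM-BMDC against GM-BMM (limma adjusted p = 0.0529) and M-BMM (limma adjusted p = 0.0798), and Mmp19 in GM-BMM against M-BMM (1.002, limma adjusted p = 0.112) and GM-BMDC against M-BMM (0.855, limma adjusted p = 0.111). Lox, Mmp2, Mmp9, Mmp12, Mmp14 and Fn1 kept with the covariate each call they had without it. For Lox, Mmp2 and Mmp9 in GM-BMDC minus GM-BMM this is a description, because those differences were known when the genes were picked. All called differences of these genes also kept their direction without both GM-CSF arrays numbered 1. Other ways of fitting ended calls of Mmp8, Mmp13 and Mmp19 alone, the unmoderated fit aside. A trended and robust variance ended those of Mmp8 in GM-BMDC against GM-BMM (limma adjusted p = 0.118) and M-BMM (limma adjusted p = 0.073), of Mmp13 in GM-BMDC against M-BMM (limma adjusted p = 0.0575) and of Mmp19 in GM-BMM against M-BMM (limma adjusted p = 0.0668). Testing all probe sets ended those of Mmp8 in GM-BMDC against GM-BMM (limma adjusted p = 0.119) and M-BMM (limma adjusted p = 0.0748) and of Mmp19 in GM-BMM (limma adjusted p = 0.117) and GM-BMDC (limma adjusted p = 0.0941) against M-BMM. A fit of only the groups compared ended those of Mmp8 in GM-BMDC against GM-BMM (limma adjusted p = 0.0941) and Mmp19 in GM-BMM against M-BMM (limma adjusted p = 0.0614).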

How the data were processed

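The 6 samples each gave 300 ng of total RNA for a single array. The deposited log2 signals were made by the authors with Affymetrix Expression Console 1.1 and RMA, per the submitters' processing notes; the genome build is not given in the sources used here. RMA makes the arrays' distributions alike, so a shift shared by most genes would be removed. The table holds 35556 probe sets, of which 21789 have 1 annotated gene, 1621 several and 12146 none, and array medians were 6.18 to 6.28. Symbols come from the platform annotation; 19938 genes were kept.

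Every gene was fitted over the 6 arrays together (limma 3.58.1, R 4.3.3; 3 residual and 4.34 prior degrees of freedom, two-sided, Benjamini-Hochberg adjustment within a comparison at 0.05), with no filter or pseudocount. The script was tested on simulated data. The genes, the lists and the alternatives were chosen with earlier results of these data known. Named list genes are up to 3 per list and comparison with the largest called difference, and fewer where the text is short; likeness names the 2 nearest profiles, leaving out predicted and clone names. Arrays have no read depth, and 2 per group limit the precision (median standard error of a log2 difference 0.13). Promoter windows are from RefSeq, GRCm38.p6. Figures used Python 3.11.15 and matplotlib 3.10.9.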

Additional observations from a re-analysis of the deposited data

How the results depend on the processing

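Over 17 alternatives and 3 comparisons, the 10 genes gave 510 values: 439 kept their direction and side of the threshold, 56 lost the call, 11 gained one and 4 turned. The tally is a description, since it includes Lox, Mmp2 and Mmp9 in GM-BMDC minus GM-BMM, whose differences were known beforehand. The turned values were -0.095 for Mmp13 (GM-BMDC minus GM-BMM) and -0.038 for Mmp14 (GM-BMM minus M-BMM) without GM-BMM replicate 2, and for Mmp19 (GM-BMDC minus GM-BMM) 0.36 without GM-BMM replicate 1 and 0.41 without both GM-CSF arrays numbered 1. None of these 3 differences passed with all arrays. Leaving out the other GM-BMM array gave 2.05 for Mmp13, 0.62 for Mmp14 and -0.64 for Mmp19. Leaving out 1 array at a time gave 3 to 8 of the 10 genes called in GM-BMM minus M-BMM. It gave 3 to 15 of the listed genes there and 15 to 37 in GM-BMDC minus M-BMM. Over all genes it gave 1102 to 2055 in GM-BMDC minus GM-BMM, 319 to 1347 between the macrophage populations and 1288 to 3412 in GM-BMDC minus M-BMM. Without limma's moderation, 0 of the 10 genes and 0 of the listed genes passed in any comparison, with 4, 5 and 7 of the 10 genes and 34, 23 and 40 of the listed genes at an unadjusted p under 0.05. Over all genes 0, 8 and 17 then passed (3686 at an unadjusted p under 0.05 in the first). With all probe sets tested, 6 listed genes were called between the macrophage populations and 21 in GM-BMDC minus M-BMM, and 1019, 615 and 2030 genes over the whole table. Fitting only the groups compared called 1207 genes in GM-BMDC minus GM-BMM, the Y-linked covariate 2114 in GM-BMDC minus M-BMM, and leaving out both GM-CSF arrays numbered 1 gave 22 listed genes in GM-BMM minus M-BMM. The cause was not tested, beyond there being fewer arrays or degrees of freedom where arrays or the moderation were left out. Whether arrays of the same replicate number share animals or cultures is not known. Deviations between replicates correlated across genes at 0.024, -0.13 and 0.026 between the populations, which cannot settle this with so few arrays. The first arrays of both GM-CSF populations alike carried Xist and read low for Eif2s3y. The fit with the replicate block called 5, 6 and 9 of the 10 genes, the same counts as without it. Signal over background is not marked in the files, so low values have no bound.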
